A study of Mus musculus with 7 samples.

Results

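Of the 14795 genes listed for mouse duodenum, 10 encode apolipoproteins or proteins needed to build and export chylomicrons, and all 10 were chosen by their symbols: Apoa1, Apoa4, Apob, Apoc2, Apoc3, Apoe, Mttp, Sar1b, Tm6sf2 and Creb3l3. Each had more than 1 CPM (the read count scaled to a common library size) in at least 3 libraries, and so all 10 were among the 13399 genes tested. None of the 10 differed between control and Ppara-deficient intestine in limma's test adjusted over all genes tested. The lowest adjusted p among them was 0.954, and in each of the 10 genes the values of the groups overlapped.

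Enterocytes re-esterify absorbed fat to triglyceride and load it onto apolipoprotein B in the endoplasmic reticulum, with the microsomal triglyceride transfer protein (Mttp) carrying the lipid. The particle leaves the endoplasmic reticulum in a COPII-coated carrier whose assembly is started by the GTPase Sar1b, and it acquires apolipoproteins A-I, A-IV and the C group, which later govern its lipolysis in plasma. Creb3l3 (CREB-H) is a membrane-bound transcription factor that is released by proteolysis and acts on several apolipoprotein genes in liver and intestine. PPARα is a nuclear receptor activated by fatty acids, and apolipoprotein genes are among the genes it is known to act on in liver.

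RNA from whole duodenum was sequenced in 3 Ppara lox/lox mice, which carry loxP sites in both Ppara alleles and no Cre, and in 4 Ppara I-KO mice, which carry the same alleles and the Villin-Cre transgene. All were C57BL/6 mice kept with free access to food and water, and on the last day they had no food for 6 h and were then refed for 6 h. Per the methods of the study these were male mice on a high-fat diet (HFD) and lox/lox controls were littermates, while the labels give neither diet, sex nor age. Those methods also give a fast before sacrifice as the general rule, with exceptions, and name no feeding state for the sequenced mice. The refed state at sacrifice therefore rests on the labels alone. The Villin promoter drives Cre in the intestinal epithelium, so that muscle, immune and stromal cells of the tissue keep an intact Ppara. The libraries held between 20745259 and 25891714 reads on the listed genes, read from the smallest step between the values. The enterocyte and duodenal markers were present in every library, with a summed level of 22766 to 24988 CPM over the lox/lox libraries and 21744 to 25317 CPM over those of I-KO. Among these Fabp1, a fatty acid binding protein and known PPAR target gene, was lower in I-KO without overlap (log2 fold change -0.57, SE 0.16, limma unadjusted p = 0.00621, adjusted p = 0.822), and Vil1, the gene of villin, was higher without overlap (0.14, SE 0.08, limma adjusted p = 0.954). Of 3 ileal markers in the table, the bile acid importer Slc10a2 read 0.19 to 0.51 CPM, while the bile acid exporter genes Slc51a and Slc51b read 123 to 184 CPM and 41.1 to 74.3 CPM. Slc51b was lower in I-KO without overlap, by a narrow margin (log2 fold change -0.31, SE 0.14, limma adjusted p = 0.954). Over all genes tested, 3.28% were lower and 2.91% higher in I-KO without overlap. Of 4 hepatocyte markers, Alb read 0.08 to 0.62 CPM, Apoh 0.38 to 0.70 CPM and Serpina1c 0.35 to 1.49 CPM, and Cps1, which enterocytes also express, read 422 to 852 CPM. The pancreatic acinar markers, summed over 12 genes without Reg1, reached 94.3 CPM for lox/lox 2 and 421 CPM for I-KO 1, against 25.7 to 40.9 CPM in the other 5 libraries. Reg1 is on the same list but was left out of the sum. It read 1182 CPM (lox/lox 3) to 1905 CPM (I-KO 4), with 1489 CPM in I-KO 1, and would outweigh the 12 genes in every library.

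Ppara itself read 53.4, 49.3 and 63.2 CPM in the 3 lox/lox libraries and 33.1, 40.6, 47.5 and 69.9 CPM in the 4 I-KO libraries. The highest value of all 7 was that of I-KO 4, and the groups overlapped. The log2 fold change was -0.25 (SE 0.22, limma adjusted p = 0.954). A total over the gene does not show whether the floxed part was removed, so the genotypes below are those of the labels.

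The upstream sequences of 5 of the genes are printed here, 3 whose levels varied together among the libraries (Apoa1, Apoa4 and Apoc2) and 2 that did not follow them (Apob and Mttp). They are the 250 bases before the RefSeq start in GRCm38.p6, given 5′ to 3′ on the strand of the gene. Of the 10 genes, 8 had an entry in the RefSeq table. Capitals mark a match to one of the 5 motifs searched, which were chosen with these sequences in view.
Apoa1, chr9:46228380-46228629, plus strand: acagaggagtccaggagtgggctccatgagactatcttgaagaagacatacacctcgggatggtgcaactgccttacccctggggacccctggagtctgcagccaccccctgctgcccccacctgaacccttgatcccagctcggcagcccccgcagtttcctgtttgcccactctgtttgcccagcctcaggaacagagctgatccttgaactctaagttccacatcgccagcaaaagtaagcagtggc
Apoa4, chr9:46240594-46240843, plus strand: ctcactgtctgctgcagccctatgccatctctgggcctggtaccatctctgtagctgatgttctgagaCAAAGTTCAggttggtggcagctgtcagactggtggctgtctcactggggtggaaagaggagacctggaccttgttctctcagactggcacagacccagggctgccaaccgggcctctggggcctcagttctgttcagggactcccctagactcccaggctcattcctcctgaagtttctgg
Apoc2, chr7:19677942-19678191, minus strand: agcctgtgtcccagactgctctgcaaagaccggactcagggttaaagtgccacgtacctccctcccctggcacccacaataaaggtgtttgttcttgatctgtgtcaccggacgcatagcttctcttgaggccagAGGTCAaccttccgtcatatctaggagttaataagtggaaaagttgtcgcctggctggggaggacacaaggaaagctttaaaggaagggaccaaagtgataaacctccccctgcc
Apob, chr12:7977427-7977676, plus strand: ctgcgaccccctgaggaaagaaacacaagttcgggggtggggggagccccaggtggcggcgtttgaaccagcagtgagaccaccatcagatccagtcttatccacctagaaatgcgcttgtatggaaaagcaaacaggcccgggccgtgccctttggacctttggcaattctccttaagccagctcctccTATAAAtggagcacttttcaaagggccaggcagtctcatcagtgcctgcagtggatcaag
Mttp, chr3:138143419-138143668, minus strand: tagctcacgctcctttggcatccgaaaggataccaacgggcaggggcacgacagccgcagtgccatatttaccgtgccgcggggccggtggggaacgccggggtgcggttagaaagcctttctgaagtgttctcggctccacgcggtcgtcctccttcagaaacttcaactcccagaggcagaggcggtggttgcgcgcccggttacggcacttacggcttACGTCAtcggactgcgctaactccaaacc

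The nuclear receptor half-site AGGTCA was searched on both strands and is in 14.0% of 32851 such upstream sequences, and a direct repeat of the same half-site with 1 free base between its copies (DR1, which contains the half-site) is in 0.0335%. CAAAGTNCA, an HNF4-type element (both strands), is in 1.19%, the cyclic AMP response element core TGACGT (both strands) in 6.47%, and TATAAA (strand of the gene) in 7.59%. The capitals in Apoa4 are CAAAGTTCA, 182 bases before the start, those in Apoc2 are AGGTCA at 115 bases, those in Apob are TATAAA at 60 bases, and those in Mttp are ACGTCA, the reverse complement of the TGACGT core, at 29 bases. The first of 2 listed Creb3l3 starts has AGGTCA at 202 bases, and the second of 3 Apoe starts has TATAAA at 96 bases. The windows of Apoa1 and Sar1b contain none of these letters, and the direct repeat is in none of the windows read. These matches describe letters in a window only. The windows of Apoa1, Apoa4, Apob, Mttp, both Creb3l3 starts (the second only at its edge) and the last 2 of the Apoe starts lie wholly or partly inside the longer GENCODE models used for the gene positions.

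Divided by exon length, with all annotated exons of a gene joined, the genes of the A and C apolipoproteins came first in abundance among the 10. In CPM not divided by length, Apob and Mttp read above Apoc2 and Apoc3 in every library. Per kilobase of exon, the mean of the 7 libraries was 13717 CPM for Apoa4 and 12806 CPM for Apoa1, then 1330 CPM for Apoc2, 1291 CPM for Apoc3, 479 CPM for Mttp and 424 CPM for Apob. Creb3l3 at 187 CPM, Tm6sf2 at 180 CPM, Sar1b at 159 CPM and Apoe at 140 CPM per kilobase were the lowest. The 10 genes took 4.61% to 5.42% of all values in lox/lox (5.14% ± 0.460, SD, n = 3) and 4.42% to 6.18% in I-KO (5.31% ± 0.770, SD, n = 4). Apoa4 and Apoa1 made up 75.1% ± 0.482 of the sum of the 10 genes for lox/lox (SD, n = 3) and 76.9% ± 1.88 for I-KO (SD, n = 4). Apoa4 took more reads than any other listed gene in 6 of 7 libraries.

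**Figure D1:**
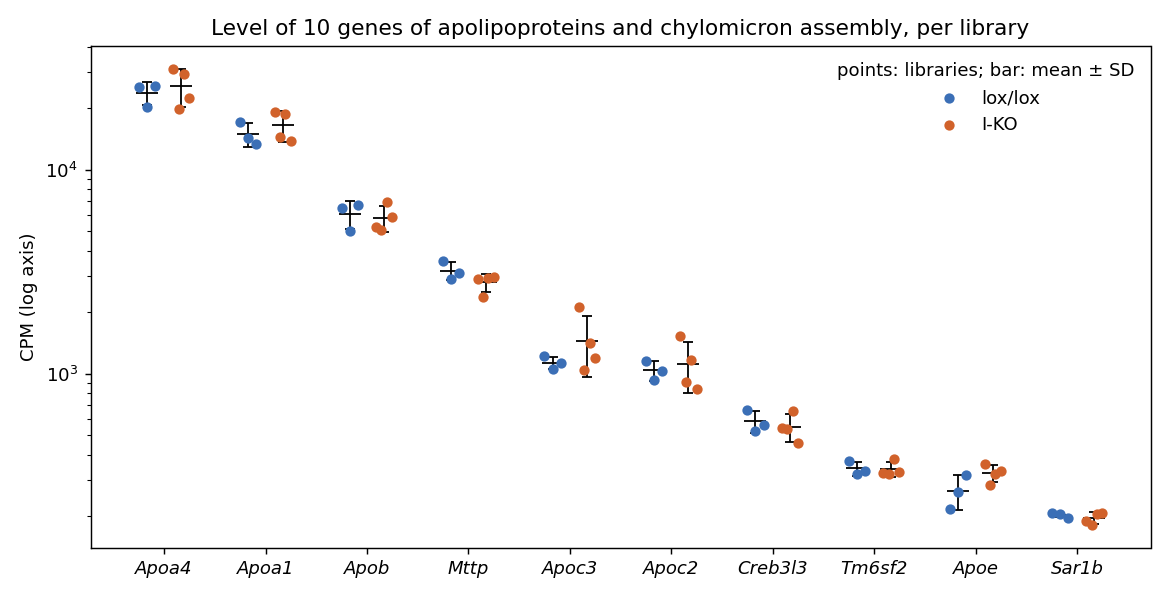
Level of each of the 10 genes in CPM on a log axis, not divided by gene length, with 1 point per library (3 lox/lox in blue, 4 I-KO in orange) and bars for mean ± SD. The groups overlap in all 10 genes, and the I-KO points of Apoa4, Apoc2 and Apoc3 spread further than the lox/lox points.

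Apoa4, at 9:46240696-46243459 on the plus strand of GRCm38, encodes apolipoprotein A-IV, a protein of nascent chylomicrons made mainly by enterocytes. It read 25330, 20296 and 25820 CPM (lox/lox 1 to 3) and 31200, 19814, 29364 and 22452 CPM (I-KO 1 to 4). I-KO 1 and I-KO 3 lay above all lox/lox libraries and I-KO 2 below all of them. Group means of 23815 ± 3058 CPM in lox/lox (SD, n = 3) and 25707 ± 5443 CPM in I-KO (SD, n = 4) left a log2 fold change of 0.09 (SE 0.17, 95% CI -0.29 to 0.48), with p = 0.686 in an exact two-sided permutation test, for which the smallest possible p is 0.0286. Antisense genes overlap Apoa4, and whether strand was used in counting is not given in the sources used here.

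Apoa1, at 9:46228580-46230466 on the plus strand, encodes the main protein of high-density lipoprotein, which the intestine also places on chylomicrons. It read 17093, 14224 and 13409 CPM (lox/lox 1 to 3) and 19138, 14400, 18749 and 13784 CPM (I-KO 1 to 4), so that I-KO 1 and I-KO 3 again lay above all lox/lox libraries and the other 2 within them. Averages were 14909 ± 1935 CPM for lox/lox (SD, n = 3) and 16518 ± 2817 CPM for I-KO (SD, n = 4), which is 0.14 on the log2 scale (SE 0.15, 95% CI -0.19 to 0.47, exact permutation p = 0.343). The ratio of Apoa4 to Apoa1 values was 1.61 ± 0.273 for lox/lox (SD, n = 3) and 1.55 ± 0.120 for I-KO (SD, n = 4).

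Apoc3, at 9:46232933-46235636 on the minus strand between those genes, encodes an inhibitor of lipoprotein lipase and of the hepatic uptake of remnants. It read 1214, 1056 and 1126 CPM (lox/lox 1 to 3) and 2123, 1037, 1410 and 1197 CPM (I-KO 1 to 4). I-KO 1 stood at the top and I-KO 3 next, while I-KO 4 lay within the lox/lox range and I-KO 2 just under it. Its log2 fold change of 0.30 (SE 0.21, 95% CI -0.19 to 0.78) was not past the threshold (exact permutation p = 0.4), and it was 0.09 without I-KO 1.

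Apoc2, at 7:19671579-19677941 on the minus strand, encodes the cofactor that activates lipoprotein lipase. Its values were 1151, 928 and 1032 CPM (lox/lox 1 to 3) and 1530, 913, 1169 and 845 CPM (I-KO 1 to 4). I-KO 1 and I-KO 3 were above all lox/lox libraries and I-KO 2 and I-KO 4 below all of them, and the log2 fold change was 0.07 (SE 0.19, 95% CI -0.37 to 0.51, exact permutation p = 0.8). The ratio of Apoc3 to Apoc2, the inhibitor to the activator, was 1.05 to 1.14 in lox/lox and 1.14 to 1.42 in I-KO, with 3 of 4 I-KO libraries above all lox/lox libraries and I-KO 2 within their range. The annotated gene Gm44805 overlaps Apoc2 on the same strand, so reads may be shared between them.

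These 4 genes followed one another among the libraries. Pairwise Pearson r of log2(CPM + 1) ran from 0.78 between Apoa1 and Apoa4 to 0.89 between Apoc2 and Apoc3, over 7 libraries of both genotypes that share their scaling and the high I-KO 1, and r is given as a description. I-KO 1 was the highest library in all 4 and I-KO 3 the second highest in all 4. Leaving out I-KO 1 changed the direction of Apoa4 to -0.01 and of Apoc2 to -0.10 on the log2 scale, and leaving out lox/lox 2 changed them to -0.02 and -0.01. I-KO 1 was also the library with 421 CPM of acinar markers (without Reg1) and lox/lox 2 the next with 94.3 CPM. Without both libraries the log2 fold changes were 0.03 for Apoa1, -0.12 for Apoa4, -0.17 for Apoc2 and 0.04 for Apoc3. The part of pancreatic tissue in these values was not tested.

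**Figure D2:**
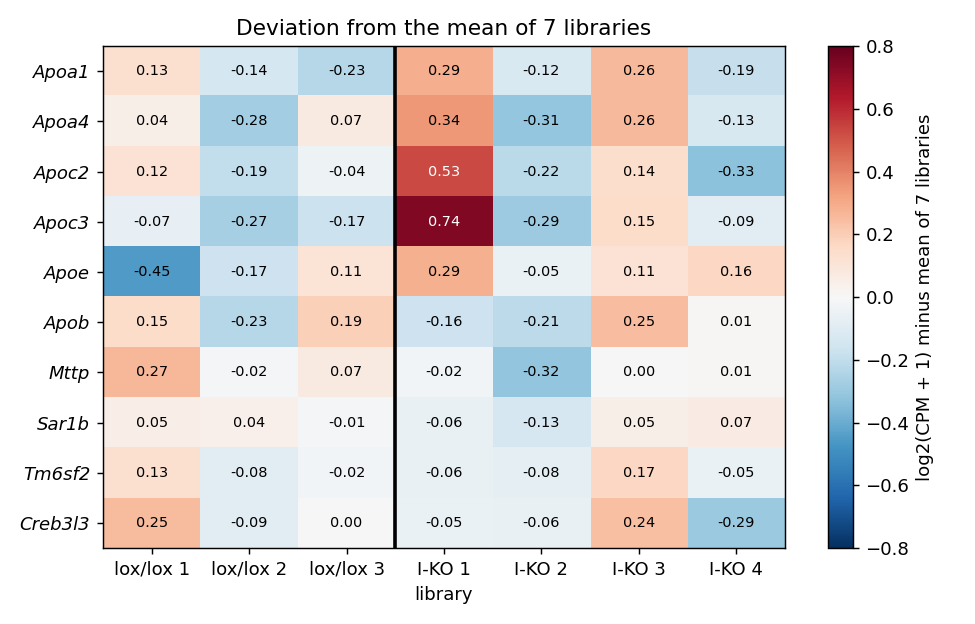
Deviation of each library from the mean of 7 libraries in log2(CPM + 1), 1 row per gene and 1 column per library, with the value printed in each cell and a black line between lox/lox (left) and I-KO (right). I-KO 1 is the highest library in the top 5 rows, and neither side of the line is uniformly red or blue.

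Apob, at 12:7977648-8016835 on the plus strand, encodes the structural protein of the particle. It read 6486, 5000 and 6687 CPM (lox/lox 1 to 3) and 5230, 5069, 6960 and 5889 CPM (I-KO 1 to 4). The highest library was I-KO 3 and the lowest lox/lox 2, and the I-KO values fell on both sides of the lox/lox mean of 6058 ± 922 CPM (SD, n = 3). On the log2 scale the difference was -0.07 (SE 0.14, 95% CI -0.39 to 0.26, exact permutation p = 0.743). It turned to 0.01 without lox/lox 3.

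Mttp, at 3:138089854-138144968 on the minus strand, read 3558, 2922 and 3110 CPM (lox/lox 1 to 3) and 2911, 2370, 2958 and 2972 CPM (I-KO 1 to 4). I-KO 2 was the lowest of all libraries and I-KO 1 also lay below all lox/lox libraries, by a narrow margin, while the other 2 fell between lox/lox 2 and lox/lox 3. The lox/lox average of 3197 ± 326 CPM (SD, n = 3) stood against 2803 ± 290 CPM for I-KO (SD, n = 4), or -0.19 on the log2 scale (SE 0.11, 95% CI -0.44 to 0.06, exact permutation p = 0.171). Its direction was negative in every alternative run, from -0.27 to -0.11. The gene overlaps Trmt10a on the opposite strand. Its protein works as a heterodimer with protein disulphide isomerase, the product of P4hb, which had a log2 fold change of -0.07 (SE 0.10).

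Tm6sf2, at 8:70072924-70080066 on the plus strand, encodes a membrane protein needed for lipidation of apolipoprotein B particles. Its values were 372, 322 and 335 CPM (lox/lox 1 to 3) and 327, 323, 383 and 328 CPM (I-KO 1 to 4), with I-KO 3 above all others and the remaining 3 I-KO libraries within the lox/lox range. The log2 fold change was -0.01 (SE 0.10, 95% CI -0.23 to 0.20, exact permutation p = 1), and its sign depended on the setting.

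Sar1b, at 11:51763687-51791925 on the plus strand, had the closest replicates, with 207, 205 and 197 CPM (lox/lox 1 to 3) and 191, 182, 206 and 209 CPM (I-KO 1 to 4). I-KO 1 and I-KO 2 lay below all lox/lox libraries and I-KO 4 above them. Their log2 fold change was -0.05 (SE 0.08, 95% CI -0.23 to 0.14, exact permutation p = 0.514). The ratio of Sar1b to its paralog Sar1a was 2.11 ± 0.0598 for lox/lox (SD, n = 3) and 2.10 ± 0.327 for I-KO (SD, n = 4).

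Creb3l3, at 10:81084324-81098874 on the minus strand, read 665, 525 and 560 CPM (lox/lox 1 to 3) and 539, 536, 660 and 455 CPM (I-KO 1 to 4). lox/lox 1 and I-KO 3 were the highest and nearly equal, and I-KO 4 was the lowest. This gave a log2 fold change of -0.10 (SE 0.14, 95% CI -0.40 to 0.21, exact permutation p = 0.571), and without lox/lox 1 it was 0.0017.

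Apoe, at 7:19696109-19699188 on the minus strand, encodes the ligand through which remnants are taken up, and it is made by macrophages in many tissues. It read 216, 264 and 320 CPM (lox/lox 1 to 3) and 362, 286, 321 and 333 CPM (I-KO 1 to 4). I-KO 1, I-KO 3 and I-KO 4 were above all lox/lox libraries, I-KO 3 by about 1 CPM, and I-KO 2 lay between lox/lox 2 and lox/lox 3. Averages of 267 ± 51.9 CPM for lox/lox (SD, n = 3) and 325 ± 31.6 CPM for I-KO (SD, n = 4) gave a log2 fold change of 0.30 (SE 0.14, 95% CI -0.02 to 0.61). This was the lowest p of the 10 genes (limma unadjusted p = 0.0599, adjusted p = 0.954, exact permutation p = 0.114). Without lox/lox 1 the log2 fold change was 0.16 and without lox/lox 3 it was 0.44. Over the alternatives run the unadjusted limma p ranged from 0.00976 without lox/lox 3 to 0.260 without lox/lox 1, and the adjusted p never fell below 0.679.

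Apoe was highest in I-KO 1, as were Apoa1, Apoa4, Apoc2 and Apoc3, but unlike them it was lowest in lox/lox 1. Its Pearson r of log2(CPM + 1) with these 4 genes ran from 0.09 (Apoa1) to 0.54 (Apoc3). Values of macrophage markers are set beside it as a description, and r with them is not given here. The 10 macrophage markers summed to 319, 390 and 440 CPM (lox/lox 1 to 3) and 507, 405, 441 and 415 CPM (I-KO 1 to 4), with lox/lox 1 lowest and I-KO 1 highest, as for Apoe. Single markers did not all share this order, and Cd163 was highest in lox/lox 2 and lowest in I-KO 3. Of the 10 markers 9 were higher in I-KO and 1 (Cd163) lower, the median difference was 0.20 on the log2 scale, and none passed the adjusted threshold. By limma, C1qc was 0.29 higher on the log2 scale (unadjusted p = 0.0478), Cx3cr1 0.27 higher (unadjusted p = 0.0215) and the log2 fold change of Cd163 was -0.37 (unadjusted p = 0.0439), each with a limma adjusted p of 0.954. The complement genes C1qa, C1qb and C1qc summed to 126, 154 and 164 CPM (lox/lox 1 to 3) and 203, 155, 177 and 165 CPM (I-KO 1 to 4). The ratio of Apoe to C1qa was 4.43 to 5.52 in lox/lox and 4.53 to 5.52 in I-KO. It was taken for C1qa only, 1 of the 10 markers, and does not describe the others. In whole tissue, a change in the number of cells of a type and a change in RNA per cell cannot be told apart. The part of macrophages in the Apoe values was not tested.

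**Figure D3:**
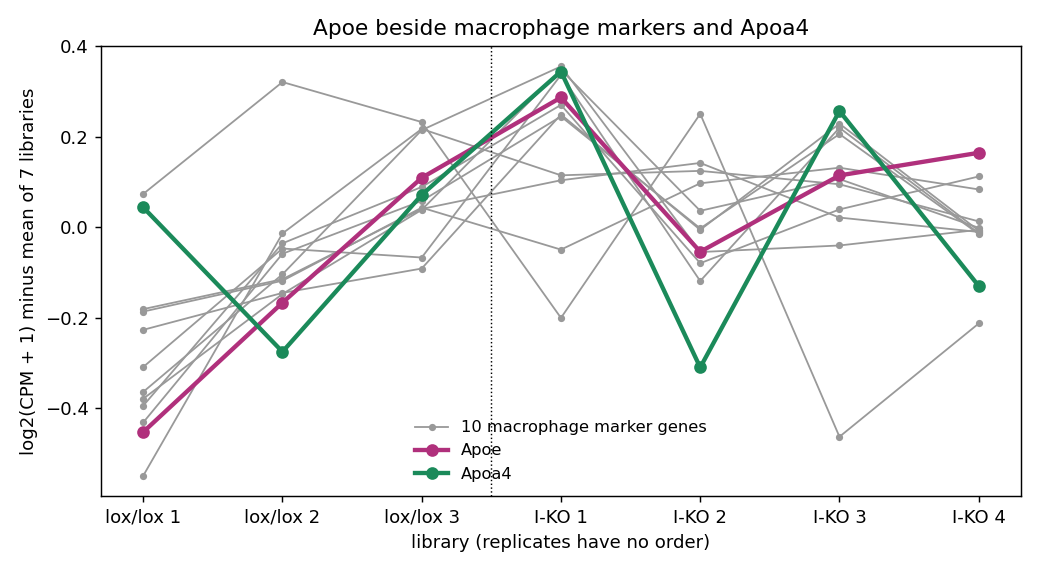
Level of Apoe (magenta), Apoa4 (green) and the 10 macrophage markers (grey) in each library, as log2(CPM + 1) minus the mean of 7 libraries, with lines joining the libraries of a gene for reading only. Apoe and 9 of the 10 markers are below their mean in lox/lox 1 and most markers are above it in I-KO 1, while Apoa4 has its lowest values in lox/lox 2 and I-KO 2.

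Side by side, 5 of the 10 genes had a higher and 5 a lower mean log value in I-KO, the median of their differences was 0.03 on the log2 scale, against a median of 0.00169 over all 13399 genes tested (6784 higher and 6615 lower). By the adjusted limma test 0 of 10 were called, where 0.0299% of all genes tested were (4 genes, 3 higher and 1 lower), so that a list of this length gives little to read from that count. By the unadjusted limma p of 0.05, 0 of 10 passed against 4.74% of all genes tested (2.32% higher and 2.42% lower in I-KO, or 311 and 324 genes, which became 156 and 407 when each column was scaled to its total), and 0 of 10 had groups without overlap against 6.19%. The half-width of the 95% confidence interval was 0.19 to 0.48 on the log2 scale, with a median of 0.32, before any adjustment for the number of genes tested. Counting error was at most 1.60% of a value, with at least 3890 reads on each gene in each library. Of the 10 genes, 8 had a larger coefficient of variation in I-KO than in lox/lox, and this count was not made over all genes. Pairs of I-KO libraries also had a larger chi-square of reads per degree of freedom (40.0 to 78.5) than pairs of lox/lox libraries (13.9 to 30.5). Genes with many reads weigh most in this measure, and the 10 genes are part of it.

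**Figure D4:**
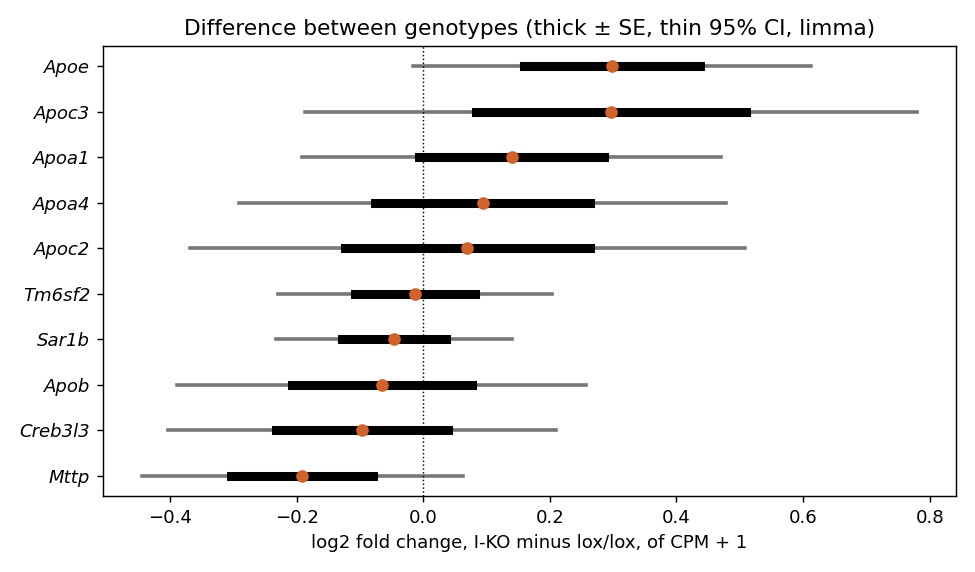
Log2 fold change of CPM + 1 (I-KO minus lox/lox) of the 10 genes in order of size, with the SE (thick line) and the 95% confidence interval (thin line) from limma. All 10 intervals cross 0, and the points run from -0.19 for Mttp to 0.30 for Apoe.

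The other genes of the pathway were read in the same fit. Of the apolipoproteins outside the 10, 4 of 10 listed were in the table and 3 were tested, of which only Clu exceeded 3 CPM. Apoa2, a protein of high-density lipoprotein, read 1.93, 1.46 and 1.26 CPM (lox/lox 1 to 3) and 2.35, 2.16, 2.33 and 1.61 CPM (I-KO 1 to 4), a log2 fold change of 0.29 (SE 0.12, limma unadjusted p = 0.0444, adjusted p = 0.954). Clu, clusterin, had 0.11 and Apod 0.18, and the others of this list are not analysed here apart from Apoh, at 0.4 to 0.7 CPM.

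Among 10 genes of apoB mRNA editing and particle lipidation, 4 were higher and 6 lower in I-KO, 0 passed the unadjusted threshold, and the median log2 fold change was -0.01. The extremes were Apobec1, the editing deaminase, at 0.10 (SE 0.09) and Vmp1, which acts in the release of lipoproteins from the endoplasmic reticulum membrane, at -0.19 (SE 0.08). Vmp1 read 227, 242 and 266 CPM (lox/lox 1 to 3) and 202, 218, 222 and 215 CPM (I-KO 1 to 4), without overlap, where 3.28% of all genes tested had I-KO values below all lox/lox values (limma adjusted p = 0.954).

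Of 20 genes of the COPII coat and vesicle export, 19 were tested, 11 higher and 8 lower, with 0 past the unadjusted threshold and a median of 0.01. They ran from the vesicle SNARE Bet1 at -0.21 (SE 0.12) to the cargo receptor Mia2 at 0.15 (SE 0.14). The 7 genes of CREB3 family processing gave 4 higher and 3 lower, from Mbtps2, the site-2 protease, at -0.15 (SE 0.14) to Creb3l1 at 0.12 (SE 0.13). The 13 tested of 14 transcription factors known to act on apolipoprotein genes gave 5 higher and 8 lower with a median of -0.06, from Nr1h4 (the bile acid receptor FXR) at -0.18 (SE 0.10) to Nr5a2 at 0.12 (SE 0.19). None of these passed the unadjusted threshold. Hnf4a had a log2 fold change of -0.02 (SE 0.09).

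The partners of apolipoproteins in plasma and at receptors held the largest difference of these 6 lists, in Angptl4. Of 11 listed, 10 were tested, 4 higher and 6 lower, with a median of -0.08 and 0 past the adjusted threshold. By the unadjusted limma p of 0.05, 1 was higher and 2 were lower, against 2.32% and 2.42% of all genes tested. Not all of these are reported here. Angptl4, which inhibits lipoprotein lipase and is a known PPAR target gene, read 33.1, 16.2 and 41.7 CPM (lox/lox 1 to 3) and 25.6, 12.2, 14.1 and 14.6 CPM (I-KO 1 to 4), a log2 fold change of -0.79 (SE 0.32, limma unadjusted p = 0.0386, adjusted p = 0.954). I-KO 1 lay within the lox/lox range and the other 3 I-KO libraries under it. Gpihbp1, the endothelial anchor of lipoprotein lipase, read 0.74, 0.69 and 0.86 CPM (lox/lox 1 to 3) and 1.15, 1.26, 1.06 and 1.12 CPM (I-KO 1 to 4), without overlap, where 2.91% of all genes tested had I-KO values above all lox/lox values (limma unadjusted p = 0.00559, adjusted p = 0.791).

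**Figure D5:**
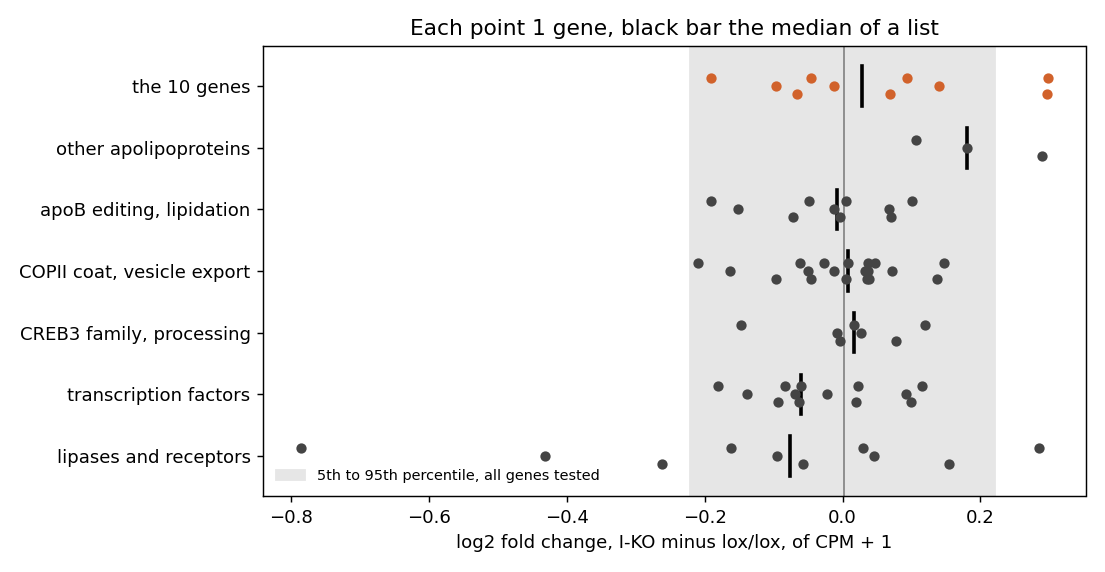
Log2 fold change of CPM + 1 (I-KO minus lox/lox) of the 10 genes (orange) and of the tested genes of 6 lists of the same pathway (dark grey), with 1 point per gene, a black bar at the median of each list and grey shading from the 5th to the 95th percentile of all 13399 genes tested (-0.22 to 0.22). Most points lie inside the shading, and Angptl4 at -0.79 is the furthest to the left.

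Apoa1, Apoa4, Apoc2, Apoc3 and Apoe lie in 2 clusters, and the neighbours of these genes were read beside them. Apob lies outside both clusters, on chromosome 12. Apoa1, Apoc3 and Apoa4 lie together on chromosome 9, where 6 listed neighbours were tested, 3 higher and 3 lower. Of these Sik3, a kinase gene next to the cluster, read 41.9, 39.3 and 41.7 CPM (lox/lox 1 to 3) and 46.9, 45.0, 45.1 and 49.6 CPM (I-KO 1 to 4), without overlap (log2 fold change 0.18, SE 0.08, limma unadjusted p = 0.0427, adjusted p = 0.954). Of all genes tested, 2.91% had I-KO values above all lox/lox values. Around Apoe and Apoc2 on chromosome 7, 5 listed neighbours were tested, 4 higher and 1 lower (Tomm40 at -0.11), with 0 past the unadjusted threshold.

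The genes most like each of the 10 over all 7 libraries, by Pearson r of log2(CPM + 1), differed between the groups of genes described above. For Apoa4 they were Arid5a (r = 0.99), Dusp5 (0.99) and Dhrs1 (0.98), for Apoc3 H2-Bl (1.00), Dusp3 (0.98) and Ctnnbip1 (0.98), and for Apoe Fcgr4 (0.99), Gm2a (0.99) and Kat5 (0.98). H2-Bl, a major histocompatibility class I gene, read 598, 478 and 532 CPM (lox/lox 1 to 3) and 1182, 474, 672 and 540 CPM (I-KO 1 to 4), with the same top library as Apoc3. Fcgr4 encodes an immunoglobulin receptor of myeloid cells, but neither it nor Gm2a nor Kat5 is among the macrophage markers listed. The genes most like Apoa1 were AI846148, Prrg2 and Cnksr1, and those most like Apoc2 were Tango2, AI467606 and Shisa5. Apob had Lepre1, Aak1 and Zcchc4, Mttp had Ctu2, Arf4 and Pemt, Sar1b had 9130023H24Rik, Sh3bp5l and Dtwd1, Tm6sf2 had 4933427D14Rik, B4galnt3 and Tmem167b, and Creb3l3 had Abhd1, 2010002M12Rik and Mocos. The highest r ran from 0.95 for Mttp to 1.00 for Apoa1 and Apoc3, over 7 libraries and with 13399 genes searched, and it describes these libraries only.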

How the data were processed

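The deposited table holds, per gene and library, a normalized signal made by the authors from read counts, in CPM of an adjusted library size, with 2 decimals and column sums of 969589 to 1098618. Per the labels, RNA was extracted with TRIzol and sequenced as stranded mRNA libraries in single reads of 100 bases. The submitters' processing notes name FastQC 0.11.2, TopHat2 2.0.13, Picard 1.80, HTSeq 0.6.1, edgeR and mm10, without roles. Such scaling divides all values of a library by the same adjusted total, so an error in that total would move all its genes together.

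Values were tested as log2(value + 1) in R 4.3.3 by limma 3.58.1, fitting genotype alone, over the 13399 genes above 1 CPM in at least 3 of 7 libraries (1396 failed), with Benjamini-Hochberg adjustment and a threshold of 0.05. A fold change on this scale understates that of low genes. Single genes were also tested by an exact two-sided permutation over 35 splits. The script was tested on simulated data. Reads were taken as the value divided by the step between low values, and intervals of counting cover counting error only. Every pair of replicates differed beyond sampling noise (chi-square per degree of freedom at least 13.9), and since nothing states that libraries of a group come from separate cages or litters, p-values measure the spread between these samples.

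Gene positions and exon lengths are from GENCODE M21 on GRCm38, in which 13922 of 14795 symbols were found, and upstream sequences from RefSeq (GRCm38.p6). The members and lists were chosen with earlier results of these data known. Named genes were the 10 members, Ppara, and of each list those at an unadjusted p under 0.05 and otherwise its highest and lowest, plus the 3 most like each member, and some genes this rule names are not reported here. Of the marker lists, genes were also named where their values moved with a result. P4hb, Hnf4a, Vil1, Sar1a, Apod, Apoh, Tomm40 and Reg1 were named after their values were seen. Alternatives were another pseudocount, no filter, column totals, median-of-ratios scaling, an intensity trend, sample quality weights, a replicate block and leaving out each library. The setting without both lox/lox 2 and I-KO 1 was chosen after seeing the data.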

Additional observations from a re-analysis of the deposited data

Results flagged for a closer look

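Each quantity was searched for a single I-KO library far from the other 3 by Dixon's ratio at its 95% critical value for 4 values. Over 81 quantities 4.05 such libraries are expected by chance and 5 were found, and the 3 lox/lox libraries were too few for this search. Mttp was low in I-KO 2, at 2370 CPM where its 3 companions had 2911 to 2972 CPM. Tm6sf2 was high in I-KO 3, at 383 CPM against 323 to 328 CPM. Nr1h3, the liver X receptor alpha, was low in I-KO 2, at 45.1 CPM against 56.4 to 57.4 CPM. Ppargc1a, a coactivator of nuclear receptors, was high in I-KO 1, at 48.2 CPM against 35.2 to 36.2 CPM, and lay within the lox/lox range of 28.2 to 52.1 CPM. The 12 pancreatic acinar genes, without Reg1, summed to 421 CPM in I-KO 1 against 25.7 to 40.9 CPM.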

How the results depend on the processing

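None of the 10 genes passed the adjusted limma threshold in any setting run. Over all genes 4 passed, 3 to 5 when leaving out each library, 12 with sample quality weights and 635 by the unadjusted p. Directions were the same in all 15 alternatives for Apoa1, Apoc3, Apoe, Mttp and Sar1b, but leaving out 1 library moved their sizes, to 0.064 (without I-KO 1) up to 0.24 (without lox/lox 1) for Apoa1, 0.092 (I-KO 1) to 0.44 (I-KO 2) for Apoc3, 0.16 (lox/lox 1) to 0.44 (lox/lox 3) for Apoe, -0.25 (lox/lox 2) to -0.11 (lox/lox 1 or I-KO 2) for Mttp and -0.075 (I-KO 4) to -0.0086 (I-KO 2) for Sar1b. The log2 fold change of Apoa4 turned to -0.017 without lox/lox 2, -0.0077 without I-KO 1 and -0.12 without both. Apoc2 turned to -0.0080, -0.10 and -0.17 in the same settings. Apob turned to 0.012 without lox/lox 3 and Creb3l3 to 0.0017 without lox/lox 1. Tm6sf2, at -0.01, turned to 0.0038 with sample quality weights, 0.0035 with the replicate block, 0.048 without lox/lox 1, 0.0053 without I-KO 1, 0.011 without I-KO 2 and 0.0035 without I-KO 4. The cause was not tested. Over the settings that leave out 1 library, values ran from -0.017 to 0.21 for Apoa4, -0.20 to 0.012 for Apob, -0.10 to 0.19 for Apoc2, -0.071 to 0.048 for Tm6sf2 and -0.19 to 0.0017 for Creb3l3. Column totals moved the median of all genes to -0.03 and the unadjusted calls from 311 higher and 324 lower to 156 higher and 407 lower.

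What the replicate numbers 1 to 3 stand for is not given in the sources used here. Same-numbered libraries deviated with correlations of -0.01, 0.18 and -0.0092, and pairs with different numbers with -0.35 to 0.28. These correlations cannot show whether a number marks a shared litter, cage or batch. The replicate block, which has no lox/lox partner for I-KO 4, gave 3 calls over all genes and 0 among the 10 genes. The planned count tests (quasi-likelihood, likelihood ratio and Wald) were not run, since in 5 libraries 78.9% to 94.1% of low values fell within 0.1 of a whole-read step, below the 95% asked for, as values rounded to 2 decimals are coarser than that. With 3 and 4 libraries the exact test cannot give a p under 0.0286.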
